A study of Citrus sinensis and Citrus x aurantiifolia and Citrus x latifolia with 53 samples.

Results

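Leaves were compared with roots in the irrigated trees of a citrus grafting experiment. All 11 irrigated leaf libraries were set against all 12 irrigated root libraries, 23 of the 53 libraries analysed, and the leaf and root count tables were joined by gene identifier. The trees were grafts. The scion was Persian lime (PL, Citrus latifolia, triploid) or Mexican lime (ML, Citrus aurantiifolia, diploid), and the rootstock was Swingle citrumelo 4475 in its tetraploid (4x) or diploid (2x) form, a hybrid that the labels give as Citrus sinensis x Poncirus trifoliata. Combinations are written with the scion first and rootstock ploidy second, as in PL4x for Persian lime on a tetraploid root. Trees had grown for 2 years in 40 L pots in a greenhouse under daily irrigation, and the irrigated group (Ctrl) stayed on it. Irrigated leaves and irrigated roots gave 3 libraries each for PL4x, ML4x and ML2x. PL2x gave 2 leaf and 3 root libraries. Leaves and roots were taken from every tree, per the labels, so leaf and root libraries share trees, but the labels do not say which leaf library belongs with which root library, and p-values treat them as separate. The other 30 libraries, 15 of leaves and 15 of roots, came from separate trees of the same combinations after 9 days without irrigation (WD), and served to see whether the leaf and root difference held in other trees.

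In a grafted tree the shoot and the root system are different plants joined at the union. Leaves carry out photosynthesis and lose water through their stomata, while roots take up water and minerals and pass them to the shoot through the xylem. The study asked how rootstock and scion ploidy bear on the response to lack of water, and the irrigated trees show what leaf and root expression look like without that stress. Because every leaf was lime and every root was citrumelo, tissue and genotype cannot be told apart in any leaf against root value below. Reads of lime and of citrumelo may also map unequally well to the gene models, and in bulk tissue fewer cells of a type and less RNA per cell cannot be told apart.

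The count tables name genes only by identifiers of the clementine type, and the tables do not pair them with gene names. None of the 24533 identifiers matched the reference table at hand, so neither the marker lists for leaf and root cell types nor any pathway list could be measured, and the tissue labels were not checked against markers. Identifiers are given without roles, at most 2 in each direction. Total counts per library were 3747153 to 32539088 in irrigated leaves (median 14804525) and 8812840 to 24464587 in irrigated roots (median 20050136). No 2 libraries of a group agreed within sampling noise. Across 21126 genes, Spearman's rho between libraries ran from 0.905 to 0.991 for leaf with leaf, from 0.922 to 0.985 for root with root and from 0.585 to 0.681 for leaf with root. Tissue took up the first principal component, with 84.8% of the variance, and the second held 4.63%. One leaf library stood apart from the other leaf libraries. PL4x Ctrl 1 had the lowest median rho with its own tissue among leaves, 0.931.

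**Figure D1:**
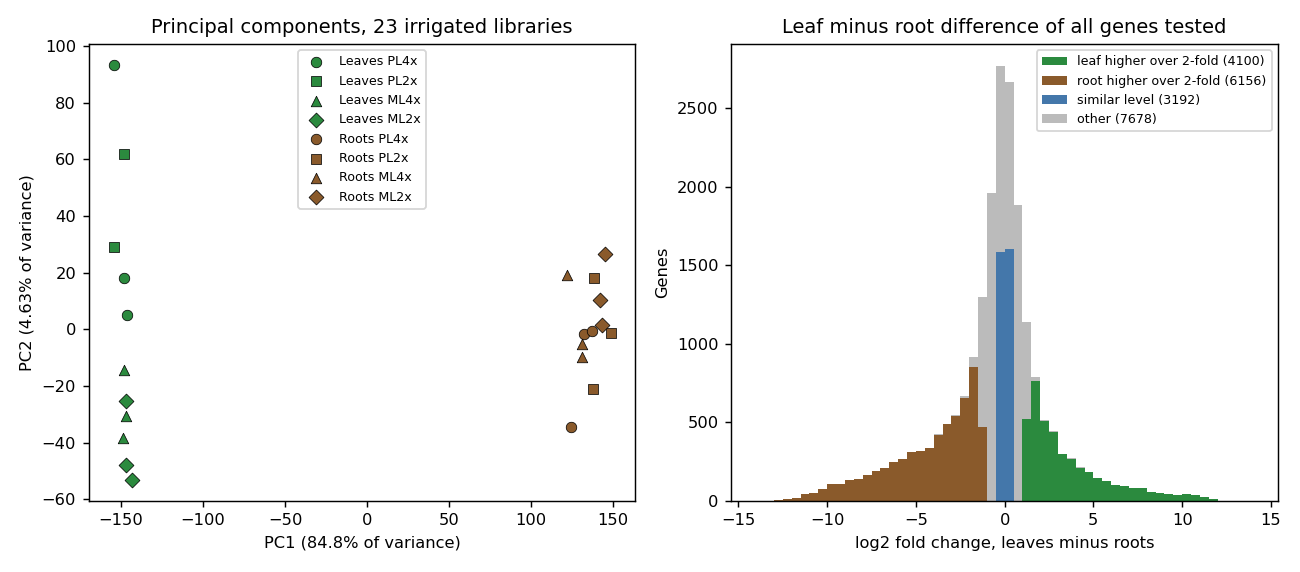
Left, the first and second principal components of log2 CPM over 21126 genes for the 11 irrigated leaf libraries (green) and the 12 irrigated root libraries (brown), with marker shape for the combination. Right, the number of genes by log2 fold change, leaves minus roots, stacked by class; leaf and root libraries lie at opposite ends of the first component, and the root side of the histogram (6156 genes over 2-fold) reaches further out than the leaf side (4100 genes).

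Most genes differed between irrigated leaves and irrigated roots. Of 21126 genes tested, 7565 were higher in leaves and 9772 higher in roots, 82.1% in all (edgeR's quasi-likelihood F test, mean of the 4 combinations, Benjamini-Hochberg adjusted p under 0.05, here termed called). When the test asked for a difference of more than 2-fold, 4100 genes were higher in leaves and 6156 higher in roots, 48.5% of those tested. The median absolute log2 fold change was 1.23. Root-higher genes outnumbered leaf-higher genes more strongly as the fold grew. Among called genes, 2819 were over 4-fold higher in leaves and 4853 over 4-fold higher in roots. Over 64-fold the counts were 654 for leaves and 1505 for roots.

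The split between the directions depended on the scaling of the libraries. Trimmed mean of M-values (TMM) factors were 0.654 to 0.877 in leaves and 1.17 to 1.32 in roots, so that all leaf libraries were scaled one way and all root libraries the other. With total counts alone the median log2 fold change over all genes was -0.89, against -0.22 with TMM, and 4649 genes were higher in leaves and 13713 higher in roots. At more than 2-fold that scaling gave 2892 leaf-higher and 8668 root-higher genes. Root-higher genes were the larger class under each scaling tried.

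The widest differences were in genes with almost no counts in the other tissue. Ciclev10006188m.g had 42.3 to 85.6 CPM (TMM-scaled CPM, median 56.8) in irrigated leaves, against 3 counts summed over the 12 irrigated root libraries. Ciclev10024601m.g had 50.2 to 188 CPM (median 69.5) in leaves, against 7 counts over all roots. No root library came near the lowest leaf library for either gene. On the root side, Ciclev10024168m.g had 3 counts over the 11 leaf libraries and 28.9 to 309 CPM (median 96.4) in roots. Ciclev10033372m.g had 2 counts over all leaves and 20.8 to 327 CPM (median 72.9) in roots. Both root genes varied more than 10-fold among root libraries and still did not overlap with leaves. The fitted log2 fold changes were 12.1 ± 0.243 (SE) for Ciclev10006188m.g, 11.9 ± 0.325 for Ciclev10024601m.g, -13.1 ± 0.81 for Ciclev10024168m.g and -13 ± 0.878 for Ciclev10033372m.g, with adjusted p of 2e-17, 6.6e-17, 2.5e-10 and 8.2e-10 in edgeR's test. SE here is the absolute log2 fold change divided by the square root of the test's F, not an error estimated directly. With so few counts on one side these fold changes depend on the prior count of the fit and are no bounds. Their SE may understate the error of counting so few reads.

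The genes that took the most counts were different ones in leaves and in roots. CPM is not corrected for transcript length, so these ranks are of counts and not of transcript number. Ciclev10012893m.g ranked first in leaves, with 28200 to 49100 CPM (median 39400), and had 2.76 to 54.7 CPM (median 10.9) in roots, where it ranked 9751. Ciclev10031443m.g ranked second in leaves, with 26100 to 36400 CPM (median 30800), and had 14.2 to 53.9 CPM (median 25.2) in roots. Both were called over 2-fold higher in leaves, with log2 fold changes of 11.5 ± 0.51 and 10 ± 0.318 (SE). The leading root genes were shared far more with leaves. Ciclev10029803m.g, first in roots, had 1070 to 3990 CPM (median 1910) in leaves and 5830 to 14400 CPM (median 8080) in roots, with no overlap and a log2 fold change of -2.06 ± 0.194 (adjusted p = 3.5e-09, edgeR). Ciclev10006308m.g, second in roots, had 914 to 6920 CPM (median 1670) in leaves and 1860 to 10100 CPM (median 4220) in roots. The tissues overlapped for this gene, and its log2 fold change was -0.88 ± 0.28 (adjusted p = 0.0074, edgeR). It also varied with the leaf library, at 6920, 6000 and 914 CPM in the leaves of PL4x replicates 1, 2 and 3.

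**Figure D2:**
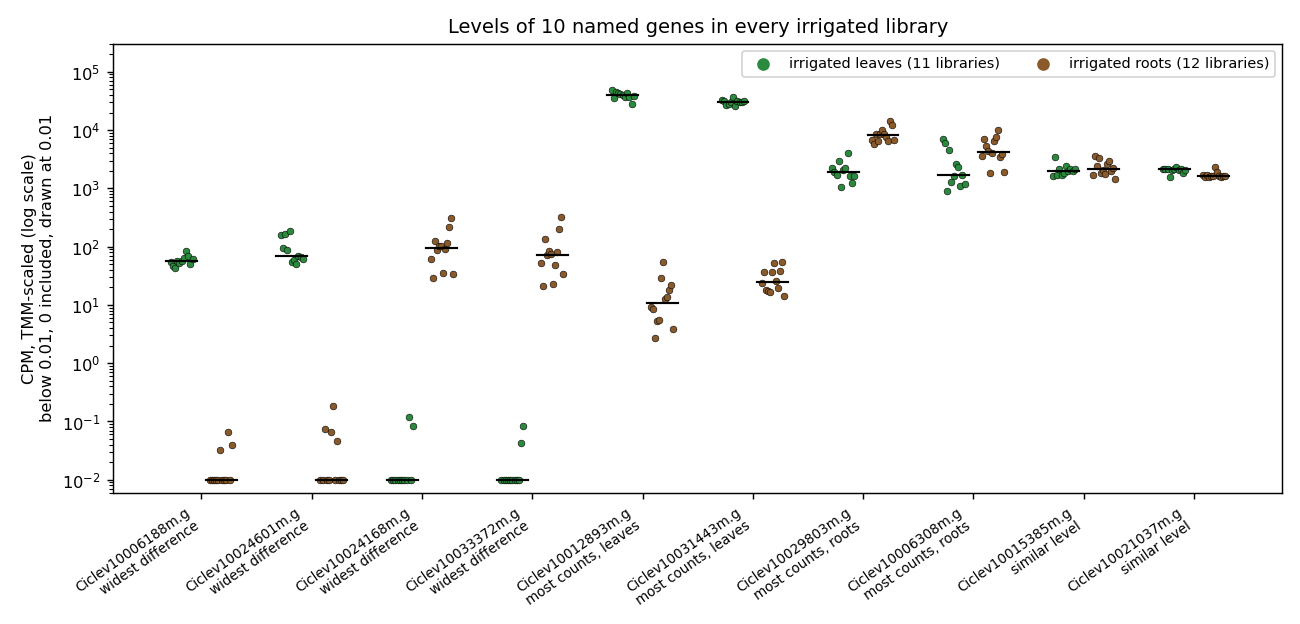
CPM after TMM scaling on a log axis for 10 named genes in each of the 11 irrigated leaf libraries (green) and 12 irrigated root libraries (brown), with a bar at the median; values below 0.01 CPM, 0 included, are drawn at 0.01. The 4 genes of widest difference are near 0 in one tissue, the leading leaf genes are at 54.7 CPM or less in roots, and the leading root genes are at 914 CPM or more in leaves.

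No gene was among the 10 with the most counts in both tissues. The lists of 100 shared 19 genes and the lists of 1000 shared 435, which is 43.5% of each. All of the 10 leading leaf genes were over 2-fold higher in leaves, and 7 of the 10 leading root genes over 2-fold higher in roots. Of the 100 leading leaf genes, 88 were over 2-fold higher in leaves, against 43 of the 100 leading root genes over 2-fold higher in roots. These shares describe lists taken from the same libraries as the calls.

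The direction of the difference went with the level of the gene. Among the 2388 genes with a mean under 1 CPM over the 23 libraries, 16.2% were over 2-fold higher in leaves and 52.3% over 2-fold higher in roots. Among the 6310 genes at 1 to 10 CPM the shares were 16.7% for leaves and 43.1% for roots. In the 10437 genes at 10 to 100 CPM they were close to equal, 19.5% for leaves and 18.3% for roots. The 1991 genes over 100 CPM showed the opposite order, with 31.5% higher in leaves and 14.1% higher in roots. Low genes leaned to roots under each scaling. The filter keeps a gene that reaches its cutoff in a few libraries, so low genes could enter through the tissue where they are higher. It used library totals without scaling factors and was the same under each scaling. How far the filter shapes these shares was not tested. The lean of the genes over 100 CPM to leaves did not hold with total counts alone, which gave 25.4% higher in leaves and 25.6% higher in roots.

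Each library's counts were more concentrated in leaves than in roots. The 10 genes with the most counts took 13 ± 0.864% of a leaf library (SD, n = 11, range 11.6 to 15.1%) and 4.5 ± 0.584% of a root library (n = 12, range 3.49 to 5.37%). A share of 50% of all counts lay in 536 ± 109 genes in leaves (307 to 749) and in 1410 ± 153 genes in roots (1143 to 1623). After thinning every library to 3747153 counts, 15400 ± 304 genes had 5 or more counts in leaves (14680 to 15809) and 18000 ± 256 in roots (17494 to 18333). Leaf and root libraries did not overlap in any of the 3 measures. The mean differences within combinations were 8.51 percentage points, -880 genes and -2600 genes. In an exact permutation test, two-sided, with tissue labels exchanged within combinations (80000 arrangements), each of the 3 had p = 1.2e-05, the smallest that design can give, and an adjusted p of 1.2e-05 over the 3. The leaf library of PL4x replicate 1 was the extreme one in all 3, with 15.1%, 307 genes and 14680 genes.

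**Figure D3:**
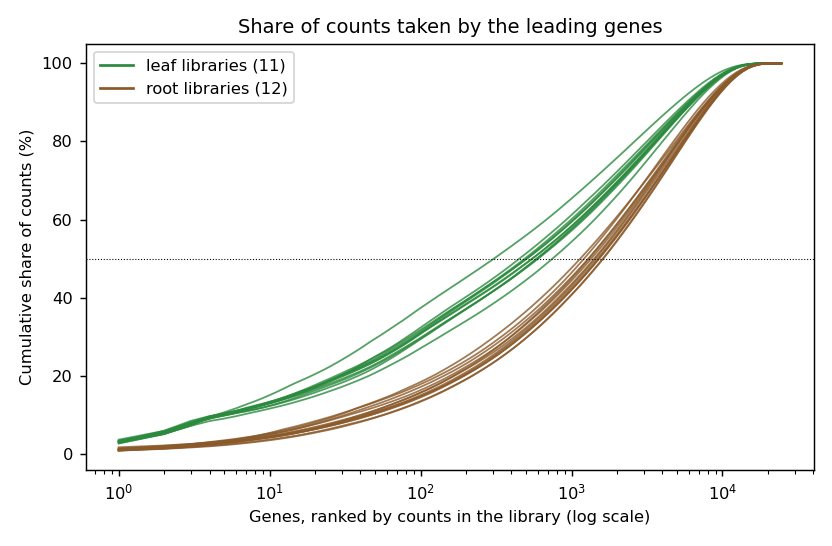
Cumulative share of a library's counts (%) against the number of genes, ranked by counts in that library (log axis), for 11 irrigated leaf libraries (green) and 12 irrigated root libraries (brown); the dotted line marks 50%. Leaf curves cross it at 307 to 749 genes and root curves at 1143 to 1623 genes.

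Single libraries of the tissues were fully separated for 8825 of the 21126 genes, 41.8% of those tested. For 3847 of them (18.2%) the lowest leaf library was above the highest root library, and for 4978 (23.6%) the lowest root library was above the highest leaf library. The gap between the nearest libraries was over 2-fold for 2115 leaf-higher and 2840 root-higher genes. Without scaling factors the counts were 2480 leaf-higher and 7805 root-higher genes.

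Detection alone separated fewer genes. In the full table of 24533 genes, 1129 had no count in any of the 23 libraries, 315 had counts in leaves and none in any root library, and 1251 had counts in roots and none in any leaf library. With at least 10 counts required in every library of the one tissue and 0 in every library of the other, 6 genes were seen in leaves alone and 142 in roots alone. With every library thinned to the total of the smallest, there were 16 in leaves alone and 148 in roots alone, so the leaf count in particular moved with depth. Ciclev10020769m.g had 5.95 to 24.5 CPM (median 14.6) in leaves and no count in the 12 root libraries, at least 1510-fold higher in leaves against a floor of 3 counts over the roots. Ciclev10009620m.g had 2.51 to 17.5 CPM (median 10.2) in leaves and no count in roots, at least 1060-fold higher. Among the root genes, Ciclev10017587m.g had no count in the 11 leaf libraries and 5.25 to 101 CPM (median 30.2) in roots, at least 1740-fold lower in leaves. Ciclev10027328m.g had no count in leaves and 18.8 to 57.8 CPM (median 30.4) in roots, at least 1790-fold lower in leaves. The floors cover counting error only.

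Some of these single-tissue genes had counts in the other tissue in WD trees. They were chosen for no count in the irrigated libraries of that tissue, and that choice favours some counts in any further libraries. The WD leaf libraries were also more numerous and deeper, 15 with a median total of 22516660 counts, against 11 irrigated ones with 14804525. Whether water deficit raised these genes was not tested. Of the 6 leaf genes, 2 had no count in any of the 15 WD root libraries, and of the 142 root genes, 32 had none in any of the 15 WD leaf libraries. The 142 root genes summed to 9 to 3615 counts per WD leaf library (median 61). The highest was ML2x WD 2, with counts in 23 of the 142 genes, and without it the highest was 131. Few genes made up most of these counts. Over all WD leaf libraries Ciclev10014693m.g had 2988 and Ciclev10003582m.g had 567, both named after their values were seen. A single gene, Ciclev10013258m.g, had at least 10 counts in all 26 leaf libraries and none in the 27 root libraries, at a median of 4.8 CPM in irrigated leaves. It was named after its values were seen. Leaving out 1 irrigated library gave 148 to 196 single-tissue genes.

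A smaller set of genes stood at like levels in both tissues. For 3192 genes (15.1%) the 95% interval of the log2 fold change lay within 1.5-fold either way, and 869 of these were also called, with small differences. In each of the 4 combinations taken alone, 2078 of the 3192 had a fitted fold under 1.5. Of the remaining genes, 1466 were neither called nor within these bounds, so nothing can be said of their direction or likeness. Similar genes made up 0.293% of the genes under 1 CPM, where intervals are wide, and 21.5% of those over 100 CPM. Ciclev10015385m.g had 1660 to 3400 CPM (median 1950) in leaves and 1440 to 3650 CPM (median 2130) in roots, and its log2 fold change was -0.15 ± 0.17. Ciclev10021037m.g had 1550 to 2340 CPM (median 2130) in leaves and 1560 to 2350 CPM (median 1620) in roots, and its log2 fold change was 0.26 ± 0.09 (adjusted p = 0.016, edgeR). The tissues overlapped for both genes, and the second shows a difference that was called and still small.

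The difference was then taken in each combination. In PL4x 6446 genes were higher in leaves and 8078 higher in roots, 68.7% of those tested. PL2x gave 5886 and 7580 (63.7%), ML4x 6066 and 7315 (63.3%), and ML2x 6136 and 7674 (65.4%), leaf-higher first. In all 4 combinations, 4344 genes were higher in leaves and 5266 higher in roots. Another 2916 genes were called in none. Opposite calls were few. In all, 220 genes were called in opposite directions in 2 combinations, 212 of them between a PL and an ML combination and 19 between the rootstocks of 1 scion.

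Whether the leaf and root difference itself changed with the scion was tested as an interaction, the difference in PL trees minus that in ML trees. It was called for 2970 genes (14.1%), 1469 with a higher and 1501 with a lower value in PL. With total counts alone the split was 943 higher and 1949 lower. In 2867 of the 2970 genes the PL against ML part was larger in leaves than in roots. Their median absolute log2 difference between scions was 0.97 in leaves and 0.25 in roots, against 0.42 in leaves and 0.17 in roots over all genes tested. Between PL and ML leaves 4587 genes were called (21.7%). In roots, which were citrumelo under both scions, edgeR called 0 genes, and 1140 had an unadjusted p under 0.05.

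Some genes were near 0 in the leaves of one lime. Ciclev10013227m.g had 35.5 to 63.3 CPM in the 5 PL leaf libraries and 0 to 0.121 CPM in the 6 ML leaf libraries, and stood at 0.222 to 0.482 CPM in roots under PL and 0.0654 to 0.941 CPM in roots under ML. It was thus leaf-higher in PL trees, with log2 fold changes of 7.33 in PL4x and 7.14 in PL2x. The fitted values leaned to roots in ML trees, at -3.73 in ML4x and -3.7 in ML2x. There it had 2 counts over the leaves and 51 over the roots, and ML leaf and root libraries overlapped. Its interaction was 11 ± 0.744 on the log2 scale (adjusted p = 9.8e-09, edgeR). Ciclev10007092m.g had 0.348 to 6.8 CPM in PL leaves and no count in ML leaves, with 2.11 to 8.55 CPM in roots under PL and 4.85 to 19.8 CPM in roots under ML. In the other direction, Ciclev10033176m.g had 2 counts over the 5 PL leaf libraries and 10.4 to 18 CPM in ML leaves, and was at 0.13 CPM or less in every root library. Its log2 fold changes were 1.52 in PL4x, -3.7 in PL2x, 11.3 in ML4x and 7.92 in ML2x. Its interaction was -10.7 ± 1.92 (adjusted p = 0.0025, edgeR), and the call was lost on leaving out 1 of the libraries. Ciclev10003420m.g had no count in PL leaves and 2.72 to 4.56 CPM in ML leaves, with 3.74 to 5.74 CPM in roots under PL and 4.61 to 6.2 CPM in roots under ML. Leaves of the limes did not overlap for any of the 4 genes. With so few counts in the leaves of one lime, the sizes of their interactions depend on the prior count of the fit. Mapping of lime reads that differ from the gene models was not tested. The count of genes moved with single libraries, from 1490 without leaf library PL2x 1 to 4179 without leaf PL4x 3. It was 1578 without leaf ML2x 2, 1738 without leaf ML4x 1 and 1942 without leaf ML2x 3. Without root libraries ML2x 1, PL2x 1 and ML4x 1 it was 1757, 1790 and 1962. For 16 of the 23 libraries left out, the count stayed within 1.5 times the reported count.

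With rootstock ploidy the leaf and root difference changed for few genes in edgeR's test. The interaction, trees on 4x minus trees on 2x, was called for 101 genes (0.478%), 89 with a higher and 12 with a lower value on 4x. In 93 of the 101 the part in roots was the larger one. Their median absolute log2 difference was 1.59 in roots and 0.23 in leaves, against 0.24 in roots and 0.17 in leaves over all genes tested. Between 4x and 2x roots 279 genes were higher and 993 lower, 6.02% of those tested. In leaves edgeR called 1 gene (0.00473%), with 925 at an unadjusted p under 0.05. It was Ciclev10006375m.g, named after its values were seen, at 2.78 to 4.73 CPM in leaves on 4x and 0 to 3.9 CPM in leaves on 2x, with overlap. Ciclev10003082m.g had the lowest interaction value, with 0.589 to 2.07 CPM in leaves on 4x, 3.57 to 4.84 CPM in 4x roots, 0.545 to 1.93 CPM in leaves on 2x and 0 to 0.32 CPM in 2x roots. It was root-higher on 4x and leaf-higher on 2x, and its interaction was -6.7 ± 0.767 (adjusted p = 0.00056, edgeR). Ciclev10020909m.g had 1.62 to 5.74 CPM in 4x roots and 0.0388 to 0.32 CPM in 2x roots, with an interaction of -6.43 ± 0.987 (adjusted p = 0.0053). Of the genes with a higher value on 4x, Ciclev10006974m.g had 0.276 to 2.04 CPM in 4x roots and 2.13 to 18.7 CPM in 2x roots. Ciclev10027281m.g had 0.425 to 1.65 CPM in leaves on 4x and 0 to 0.523 CPM in leaves on 2x. In roots it was far higher, at 11.7 to 28.3 CPM in 4x and 16.2 to 30 CPM in 2x. Its 4x against 2x difference was called neither in leaves (adjusted p = 0.28, edgeR) nor in roots (0.47).

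The number of genes in the rootstock interaction was not stable. Total counts alone gave 24 higher and 9 lower genes, and DESeq2 gave 331 and 84. Leaving out leaf libraries gave 28, 19 and 17 genes for ML2x 1, 2 and 3, 31, 24 and 23 for ML4x 1, 2 and 3, 46 and 42 for PL2x 1 and 2, and 66 and 36 for PL4x 1 and 2. Leaving out root libraries gave 30, 34 and 232 genes for ML2x 1, 2 and 3, 38 and 26 for ML4x 1 and 3, 210, 22 and 37 for PL2x 1, 2 and 3, and 44 and 34 for PL4x 1 and 2. Without each of the other 3 libraries the count stayed within 1.5 times the reported count. Ciclev10006974m.g lost its call without any 1 of 20 libraries and Ciclev10027281m.g without any 1 of 9. Ciclev10003082m.g and Ciclev10020909m.g each lost it without 1 library, leaf PL2x 2. Of other settings, total counts, thinning and a fit of all 53 libraries each ended the calls of Ciclev10006974m.g (adjusted p = 0.067, 1 and 0.19) and Ciclev10027281m.g (0.055, 0.36 and 0.26), and voom that of Ciclev10027281m.g (0.11). With leaf and root libraries blocked by library number only Ciclev10003082m.g of these 4 genes kept its call (adjusted p = 0.04), and Ciclev10020909m.g, Ciclev10027281m.g and Ciclev10006974m.g did not (0.056, 0.056 and 0.076).

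The leaf and root difference was measured again in the WD trees, which share no library with the irrigated ones. There 6771 genes were higher in leaves and 8802 higher in roots, 75% of 20758 tested. Of 20496 genes tested in both treatments, 6680 were leaf-higher and 8687 root-higher in WD trees, and 7489 were leaf-higher and 9308 root-higher in irrigated trees. The leaf-higher genes called in both treatments numbered 5796, which is 86.8% of the WD list and 77.4% of the irrigated list, where 32.6% of all genes tested in WD were leaf-higher. For root-higher genes 7453 were called in both, which is 85.8% of the WD list and 80.1% of the irrigated list, where 42.4% of all were root-higher. The opposite call in WD trees was made for 245 of the irrigated leaf-higher and 174 of the irrigated root-higher genes. At more than 2-fold, 41% of the 20758 genes were called in WD trees. Among the 20496 genes, 3094 leaf-higher ones were called in both treatments, 87% of the WD list and 76.7% of the irrigated list. In WD trees 17.3% of all 20496 were leaf-higher over 2-fold. For root-higher genes 4288 were called in both, 89.7% of the WD list and 75.1% of the irrigated list, where 23.3% of all were root-higher. The opposite call over 2-fold was made for 6 of the irrigated leaf-higher and 12 of the irrigated root-higher genes. Across the 20496 genes the log2 fold changes of the treatments had a Pearson's r of 0.929, given as a description, since genes are not independent replicates.

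**Figure D4:**
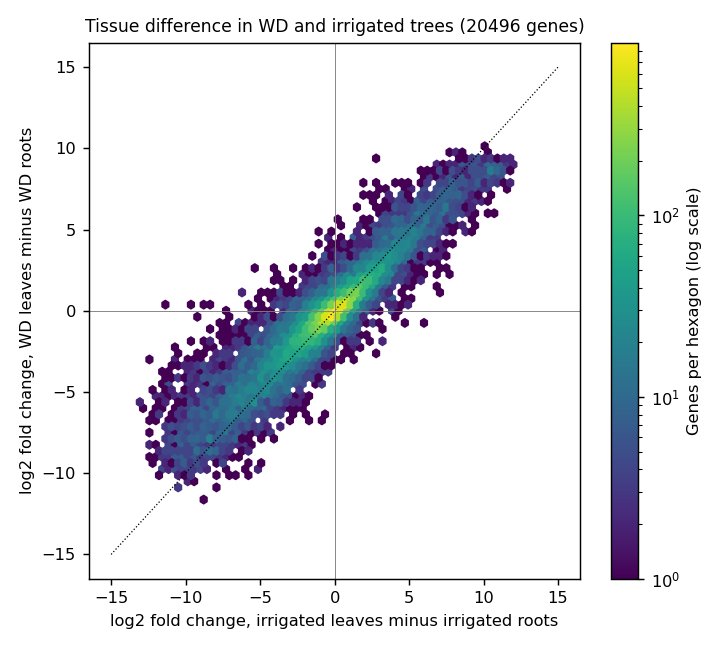
Log2 fold change of leaves minus roots in WD trees (vertical axis) against that in irrigated trees (horizontal axis) for 20496 genes, coloured by the number of genes per hexagon on a log scale; the dotted line marks equal values. The cloud follows the line (r = 0.929 across genes) but is narrower in WD trees, with an SD of 2.79 against 3.25 in irrigated trees.

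Differences between the tissues were smaller in WD trees. The median absolute log2 fold change was 0.95 in WD trees and 1.18 in irrigated trees, and it was smaller in WD trees in each combination, from 1.05 in WD and 1.14 in irrigated ML4x trees to 1.02 in WD and 1.32 in irrigated PL2x trees. In a fit of all 53 libraries the tissue by treatment interaction was called for 6774 of 21565 genes (31.4%), with 4271 higher and 2503 lower in WD trees. With total counts alone the split was 7033 higher and 1440 lower. For 4833 of the 6774 (71.3%) the leaf and root difference was closer to 0 in WD trees, as it was for 64.5% of all genes tested. The fitted difference changed sign for 1698 of them.

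The 4 genes that set irrigated leaves and roots furthest apart had far lower medians in WD trees, given here as values on the scale of all 53 libraries. Ciclev10006188m.g had 0.28 to 61.6 CPM (median 8.99) in WD leaves and 43.2 to 86.7 CPM (median 56.3) in irrigated leaves. Ciclev10024601m.g had 1.49 to 134 CPM (median 20.2) in WD leaves and 50.9 to 189 CPM (median 71.3) in irrigated leaves. For both leaf genes the treatments overlapped. In roots, Ciclev10024168m.g had 0 to 30.6 CPM (median 0.147) in WD and 31.8 to 338 CPM (median 106) in irrigated trees, with no overlap. Ciclev10033372m.g had 0 to 37.2 CPM (median 0.17) in WD roots and 22.9 to 358 CPM (median 80.4) in irrigated roots, where the highest WD library lay within the irrigated range. Ciclev10017587m.g had 0 to 3.09 CPM (median 0.0496) in WD roots and 5.78 to 112 CPM (median 33.2) in irrigated roots. The leading leaf gene Ciclev10012893m.g had 1070 to 34300 CPM (median 8030) in WD leaves and 27900 to 49700 CPM (median 39100) in irrigated leaves. In contrast Ciclev10006308m.g, second in irrigated roots by counts, had 4870 to 58000 CPM (median 15000) in WD roots and 2050 to 11000 CPM (median 4660) in irrigated roots. All of these genes were chosen for extreme or high values in the irrigated libraries. That choice favours lower values in WD libraries, so the comparison is a description.

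The 4 genes with the most extreme interaction values varied widely between libraries of a group. Ciclev10007953m.g had 1.17 to 38 CPM (median 15.9) in WD leaves and 1.1 to 78.7 CPM (median 26.2) in WD roots, against 21 to 71.9 CPM (median 47.4) in irrigated leaves and 0.0761 to 1.44 CPM (median 0.603) in irrigated roots. It was leaf-higher in irrigated trees, and WD leaves and WD roots overlapped (interaction -6.49 ± 0.709, adjusted p = 1e-08, edgeR). Ciclev10003279m.g had 0.0422 to 2.63 CPM (median 1.03) in WD leaves and 0.0532 to 4.22 CPM (median 0.296) in WD roots, against 0.493 to 101 CPM (median 1.24) in irrigated leaves and 0 to 0.172 CPM (median 0.0219) in irrigated roots, with an interaction of -5.84 ± 0.972 (adjusted p = 1.6e-05). Leaf library PL4x Ctrl 1 held 678 of its 1166 counts in irrigated leaves, and on leaving out 1 library at a time the interaction was -6.43 to -4.86 and stayed called. Ciclev10019773m.g and Ciclev10011377m.g had the highest interactions, 11.6 ± 3.27 (adjusted p = 0.0061) and 9.91 ± 1.59 (adjusted p = 8.3e-06). Leaf library ML2x WD 2 held most of their counts in WD leaves, 4319 of 4457 for Ciclev10019773m.g and 6685 of 7862 for Ciclev10011377m.g. The median of WD leaves was 0.0677 CPM for Ciclev10019773m.g and 0.778 CPM for Ciclev10011377m.g. Other WD leaf libraries also had counts, 115 of Ciclev10019773m.g in ML4x WD 4, and 239, 300, 351 and 159 of Ciclev10011377m.g in PL4x WD 1, 3 and 4 and ML4x WD 4, against 2 and 9 counts of these genes over all 11 irrigated leaf libraries. Without leaf library ML2x WD 2 the interactions were 8.84 and 7.84 and stayed called. Without leaf library PL2x WD 2 the call for Ciclev10019773m.g was lost (adjusted p = 0.21).

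Shares of counts by class were compared between the treatments. Genes called over 2-fold higher in irrigated leaves took 30.1 to 57.3% of the counts of a WD leaf library (median 40.7%) and 54.2 to 62.4% of an irrigated leaf library (median 57.6%), with partial overlap. In roots these genes took 8.37 to 10.9% in WD and 7.83 to 8.74% in irrigated libraries. Genes called over 2-fold higher in irrigated roots took 19.4 to 28% of a WD root library (median 22.9%) and 26.5 to 34.3% of an irrigated root library (median 29.6%). In leaves they took 3.07 to 8.94% in WD and 2.46 to 3.36% in irrigated libraries. The classes were chosen on the irrigated libraries. That choice favours a lower WD share in the tissue where a class is higher, and a higher WD share in the other tissue. The comparison of the treatments is therefore a description. The 10 genes with the most counts took 4.2 to 12.8% of a WD leaf library (median 6.74%) and 3.67 to 10.9% of a WD root library (median 4.46%), and these ranges overlapped, unlike those of irrigated trees.

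**Figure D5:**
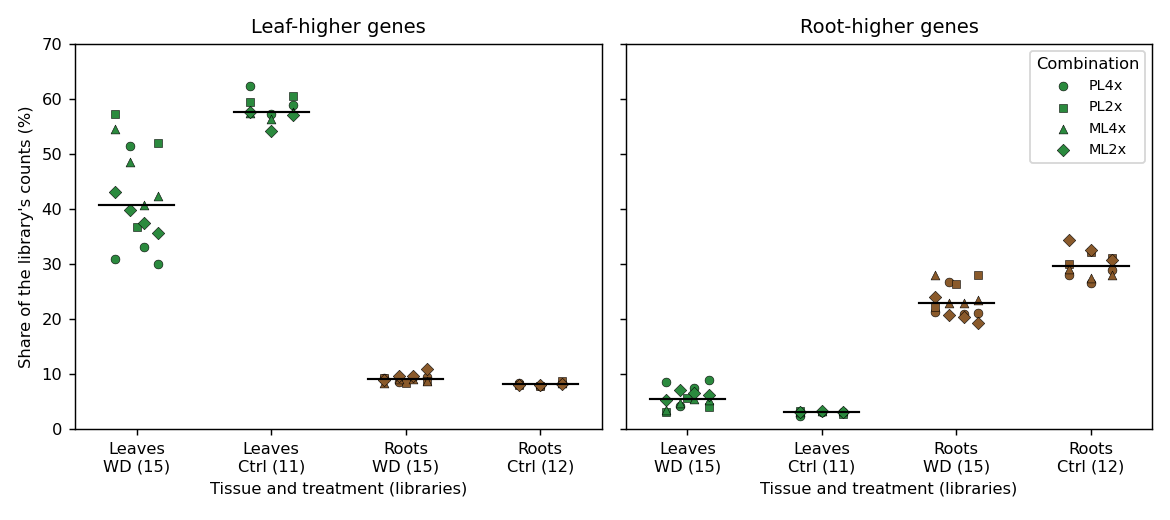
Share of each library's counts (%) taken by the 4100 genes over 2-fold higher in irrigated leaves (left) and the 6156 genes over 2-fold higher in irrigated roots (right), in WD and irrigated (Ctrl) libraries of leaves (green) and roots (brown), with marker shape for the combination and a bar at the median. In WD leaves the leaf-higher genes take a median of 40.7%, against 57.6% in irrigated leaves, and in WD roots the root-higher genes take 22.9%, against 29.6% in irrigated roots. The genes were chosen on the irrigated libraries, which favours lower WD shares here.

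Spread among trees of a group was measured in each tissue. The common biological coefficient of variation of edgeR was 0.273 in irrigated leaves (17726 genes) and 0.299 in irrigated roots (20023 genes). The median of the coefficients of single genes was 0.252 in leaves and 0.248 in roots. The gene sets of the tissues were not the same. Over 18738 genes the median standard deviation of log2 CPM within a combination was 0.31 in leaves and 0.27 in roots, and it was larger in leaves for 10994 genes. The order of the tissues thus differs between these measures. Without leaf library PL4x 1 the common coefficient was 0.215 in leaves, the lowest value on leaving out a leaf library.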

How the data were processed

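The authors deposited whole-number read counts per gene, not normalised, as 1 table for leaves and 1 for roots. Trimming was done with Trimmomatic and counting with HTSeq, per the submitters' processing notes. Tool versions, the aligner, the build, the annotation and the strand setting were not given in the sources used here. Per the labels' protocols, RNA came from 100 mg of tissue, and 1 µg of it went into a strand-marking mRNA library kit. Reads shared by near-identical gene copies, or by overlapping genes, may be lost or split between them, and without the strand setting reads of a gene and its antisense partner cannot be told apart.

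Tables were joined on 24533 identifiers. Genes were filtered by group (filterByExpr), scaled by TMM and fitted with 8 groups in edgeR 4.0.16 (R 4.3.3, limma 3.58.1) with the quasi-likelihood F test, glmTreat for differences over 2-fold, and no tree block. A gene was called at a Benjamini-Hochberg adjusted p under 0.05 over all genes tested. Each combination had equal weight. WD libraries had a fit of their own, and the tissue by treatment interaction a fit of all 53 libraries, whose CPM differ slightly from those of the irrigated fit. CPM for principal components had 1 added before log2. Thinning drew counts without replacement. Statistics were tested on simulated data. DESeq2 1.42.0, limma's voom with quality weights, other scalings and leaving out each library were alternatives.

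The named genes were the 2 of highest and 2 of lowest log2 fold change among called genes that do not overlap between tissues and have a mean of at least 10 CPM in the higher tissue, the 2 with the most counts in each tissue, the 2 similar genes with the most counts, the 2 single-tissue genes of highest mean CPM per tissue, and the 2 extreme called genes per direction of each interaction with a mean of at least 1 CPM. Members, lists and rules were chosen with earlier results of these data known. Libraries of a group are separate trees by the design. Figures were drawn with matplotlib 3.10.9.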

Additional observations from a re-analysis of the deposited data

Results flagged for a closer look

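The leaf and root difference itself differed between groups in 3 tested interactions. It differed between PL and ML trees for 2970 genes, between trees on 4x and 2x rootstocks for 101 genes and between WD and irrigated trees for 6774 genes, each by edgeR's test of the interaction. Among the named genes the interaction on the log2 scale was 11 for Ciclev10013227m.g, 9.87 for Ciclev10007092m.g, -10.7 for Ciclev10033176m.g and -8.97 for Ciclev10003420m.g between scions. Between rootstocks it was 4.6 for Ciclev10006974m.g, 4.52 for Ciclev10027281m.g, -6.7 for Ciclev10003082m.g and -6.43 for Ciclev10020909m.g. Between treatments it was 11.6 for Ciclev10019773m.g, 9.91 for Ciclev10011377m.g, -6.49 for Ciclev10007953m.g and -5.84 for Ciclev10003279m.g. Several of these values rest on almost no counts in a group, so their size depends on the prior count of the fit.

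Single libraries lay far from the rest of their group by Dixon's test in 13 of 91 sets of values. The test's rate of 1 in 20 for chance does not hold here. The sets share libraries, some are 0 but for 1 library, and many of the genes were chosen for extreme values. Several of the 13 rest on a handful of counts. Leaf library PL4x Ctrl 1 held 15.1% of its counts in 10 genes, where the other 4 PL leaf libraries had 13 to 13.3%. Leaf library PL4x WD 2 gave 51.4% of its counts to genes over 2-fold higher in irrigated leaves, where the other 3 of its group gave 30.1 to 33.1%. Root library PL4x WD 2 gave 8.58% to those genes, against 9.36 to 9.49% in the others, and 26.8% to genes over 2-fold higher in irrigated roots, against 21 to 21.3%. Root library ML4x WD 1 gave 28% to the root-higher genes, against 22.9 to 23.4%. The leading leaf gene Ciclev10012893m.g had 54.7 CPM in root library ML4x Ctrl 1, against 2.76 to 13.5 CPM in the other 4x roots. Ciclev10029803m.g had 3990 CPM in leaf library ML4x Ctrl 3, against 1240 to 2220 CPM in the other ML leaves. Ciclev10021037m.g had 1550 CPM in leaf library PL2x Ctrl 1, the library with the fewest counts, against 2030 to 2180 CPM in the other PL leaves. Ciclev10003082m.g had 0.872 CPM in leaf library ML2x Ctrl 2, against 0.545 to 0.663 CPM in the other ML leaves, and 0.32 CPM in root library ML2x Ctrl 2, against 0 to 0.0325 CPM in the other 2x roots. Ciclev10024601m.g had 0.065 CPM in root library PL2x Ctrl 3, and Ciclev10033176m.g had 0.0761 CPM in leaf library PL4x Ctrl 3 and 0.0378 CPM in root library PL4x Ctrl 3, each in a set otherwise at 0.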

How the results depend on the processing

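The counts of genes called between leaves and roots, over all combinations, in each combination and in WD trees, stayed within 1.5 times the reported count under every alternative run, and no named gene reversed. Of 624 single-gene values on leaving out a library or changing a setting, 45 lost their call, 1 in the treatment, 2 in the scion and 42 in the rootstock interaction. Of the interactions the rootstock one moved most, to 33 genes with total counts, 415 with DESeq2, 172 with voom, 42 after thinning and 51 in a fit of all 53 libraries. The scion interaction had 1519 genes in that fit, and the treatment interaction 10423 with voom. Similar genes numbered 6781 within 2-fold, and 3225 genes did not overlap over all 53 libraries. Single-tissue genes numbered 321 at a minimum of 3 counts, 469 with up to 3 counts allowed in the other tissue and 1 over all 53 libraries. After thinning the common coefficient of variation was 0.274 in roots and 0.246 in leaves, lower than reported in both. The cause of these moves was not tested. Low genes, and the leaf group of PL2x with 2 libraries, limit what the depth can show.

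On leaving out 1 library, calls ran from 16777 to 17418 over all combinations, 10032 to 10299 over 2-fold, 13529 to 14664 in PL4x, 10634 to 14006 in PL2x, 12328 to 13981 in ML4x, 12757 to 14412 in ML2x, 15242 to 15815 in WD trees, 1490 to 4179 for the scion, 17 to 232 for the rootstock and 6244 to 7311 for the treatment interaction, whose dispersion trend was kept from all 53 libraries. The other results ran from 8849 to 9263 non-overlapping, 148 to 196 single-tissue and 2873 to 3438 similar genes, and the 3 library measures from 8.35 to 8.61 percentage points, -905 to -859 genes and -2650 to -2530 genes. Coefficients of variation ran from 0.215 to 0.292 in leaves and 0.282 to 0.308 in roots.

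Leaf and root libraries came from the same trees and share numbers, which the labels do not tie to trees. Deviations from group means of same-numbered pairs had correlations of -0.279 to 0.355 in WD trees (5 of 15 over 0.1) and -0.226 to 0.237 in irrigated trees (3 of 11). By the place of the library number 6 of 14 WD and 3 of 11 irrigated pairs were over 0.1. Neither numbering was taken to pair trees, and a block by the true trees was not run. With a replicate block by title number, 16932 genes were called over all combinations, 2480 for the scion and 44 for the rootstock. With the block by library number the counts were 16735, 1030 and 3, the last 3 being Ciclev10003082m.g, Ciclev10011494m.g and Ciclev10012000m.g. The blocks, added after seeing the data for these results, gave 15304 (title) and 14957 (library number) genes in WD trees and 6447 and 6427 for the treatment interaction.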
